A study of Mus musculus with 6 samples.

Results

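The genes examined here are 54 mouse genes of mitosis and the G2/M transition, taken by symbol from the array's annotation, of which 52 were measured among 19505 genes in all. Ccnb1 and Foxm1 were not analysed here. Each measured gene had 1 probe set, and the genes were sorted into 7 roles by function: mitotic entry, the spindle checkpoint and anaphase, the kinetochore, the chromosomal passenger complex, the spindle, cytokinesis and chromosome structure. The data are 6 Affymetrix arrays, 1 per sample, of cultured fibrosarcoma cells on the C57BL/6 background that express Rras2(Q72L), a mutant form of the RAS-related GTPase R-RAS2. In 3 samples (shRras2, replicates 4 to 6) the cells had been transduced with a lentiviral vector for a single shRNA against Rras2, sh#89, and in 3 samples (pLKO, replicates 1 to 3) with the empty vector. Both groups thus carried the mutant Rras2 and a vector backbone, effects of that shRNA on other transcripts cannot be told apart from loss of Rras2, and no label tells if replicates were grown apart, which leaves p-values that may reflect technical spread alone. The comparison asks which of the transcripts used in cell division differed when Rras2 RNA was lowered in these tumor cells.

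A cell enters mitosis when CDK1, bound to A- and B-type cyclins, is freed from inhibitory phosphorylation. Chromosomes are then condensed and attached through kinetochores to the spindle, and the checkpoint holds the anaphase-promoting complex in check until every kinetochore is attached. Most of these genes are transcribed in a wave in G2 and M, under the MuvB complexes with B-MYB and FOXM1, so that their summed RNA in a growing culture rises with the share of cells in those phases. In their promoters the cell cycle homology region (CHR) and CCAAT boxes, the sites of MuvB and NF-Y, are known from mouse and human.

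The promoters shown here are those of Cdk1, Ccnb2, Cdc20 and Top2a, from 3 of the roles, because they display the motifs that most of these genes had in common. The 250 bases before the RefSeq start are given on build GRCm38.p6, 5′ to 3′ on the strand of the gene, with capitals marking TTTGAA and TTTAAA (spellings of the CHR) and CCAAT on either strand.
Cdk1 (chr10:69352913-69353162, minus strand): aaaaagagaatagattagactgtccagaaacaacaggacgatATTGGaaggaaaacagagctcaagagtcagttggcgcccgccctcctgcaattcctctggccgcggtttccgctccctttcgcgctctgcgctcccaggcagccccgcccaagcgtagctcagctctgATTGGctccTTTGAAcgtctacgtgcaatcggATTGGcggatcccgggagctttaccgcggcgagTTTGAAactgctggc
Ccnb2 (chr9:70421555-70421804, minus strand): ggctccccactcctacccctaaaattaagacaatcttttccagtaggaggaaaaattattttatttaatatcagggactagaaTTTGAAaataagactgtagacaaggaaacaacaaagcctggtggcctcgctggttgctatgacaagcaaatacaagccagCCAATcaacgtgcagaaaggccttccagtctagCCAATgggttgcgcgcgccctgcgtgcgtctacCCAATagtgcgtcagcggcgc
Cdc20 (chr4:118437344-118437593, minus strand): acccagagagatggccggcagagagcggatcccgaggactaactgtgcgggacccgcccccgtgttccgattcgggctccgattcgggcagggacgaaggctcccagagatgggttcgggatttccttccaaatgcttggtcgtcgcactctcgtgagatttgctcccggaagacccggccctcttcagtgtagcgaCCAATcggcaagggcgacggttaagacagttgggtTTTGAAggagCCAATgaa
Top2a (chr11:99024190-99024439, minus strand): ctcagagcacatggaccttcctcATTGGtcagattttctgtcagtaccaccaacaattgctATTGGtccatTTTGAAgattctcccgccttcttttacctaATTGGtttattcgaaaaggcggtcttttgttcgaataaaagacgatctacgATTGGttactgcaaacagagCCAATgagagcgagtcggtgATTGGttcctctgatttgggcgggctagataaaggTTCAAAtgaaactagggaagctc

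A RefSeq promoter window, reaching from 250 bases before to 50 bases after the start, was found for 43 of the 52 measured genes. TTTGAA on either strand lay in the window of 32 of these 43 genes (74.4%), against 17.8% of the 15691 genes on the array with a window of the same length. Within 50 bases of the start it was present in 29 of the 43 (67.4%), against 4.57% of the array genes. The related TTTAAA was found in 9 of the 43, and counting both CHR spellings gave 34 of 43 (79.1%) against 27.6% of the array genes. CCAAT occurred in 32 of the 43 genes (74.4%) and in 42.2% of the array genes, and a CHR together with CCAAT in 29 of the 43 (67.4%) against 11.4%. The 34 genes with a CHR spelling had a median log2 difference (shRras2 minus pLKO) of 0.047 and the 9 without one a median of 0.022. These matches describe letters in a window and are not measured binding sites. The windows of Nusap1, Kif18a, Mad2l1, Ncaph, Nuf2 and Pttg1 held neither CHR spelling and no CCAAT. Ccna2 was among the genes for which no window was found.

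The knockdown itself was visible on every array. Rras2, on probe set TC0700004132.mm.2, had log2 signals of 9.09, 9.69 and 9.21 on shRras2 replicates 4, 5 and 6, against 10.67, 10.75 and 10.82 on pLKO replicates 1, 2 and 3. The groups did not overlap, and replicate 5 kept the highest signal of the 3 knockdown arrays. Its log2 difference, -1.41 ± 0.14 (SE), passed in limma (adjusted p = 0.00163), while an exact two-sided permutation over arrays returned p = 0.1, its lowest possible value at this size. Array medians lay between 7.22 and 7.28. Markers of other lineages were checked against the 95th percentile of the negative-control probe sets, a log2 signal of 7.92: 0 of 10 epithelial and 0 of 8 immune markers lay above it in either group, 0 of 10 endothelial markers did in shRras2 against 1 (Esam) in pLKO, and 10 of 15 fibroblast markers did in both groups, while Col1a2, Fap, Thy1, Dcn and Lum lay below it. Of the endothelial markers 0 passed the adjusted threshold (all genes, 5.21%) and 4 had an unadjusted limma p under 0.05 (all genes, 19.1%). Of all genes, 2.99% were called higher and 2.22% lower. Fibroblast markers also moved, with 5 of 15 higher, 0 lower and a median log2 difference of 0.23. Their summed linear signal was 51319 to 53684 on shRras2 arrays against 47133 to 49048 on pLKO arrays. Skeletal muscle markers moved with the knockdown, with 16 of 23 higher and 0 lower, 12 above the percentile in shRras2 against 1 in pLKO, and a summed linear signal of 7007 to 11906 on shRras2 arrays against 2091 to 2335 on pLKO arrays. The part of the muscle and fibroblast markers in the results below was not tested.

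All 52 genes had group means above the negative-control percentile in both shRras2 and pLKO cells. Espl1 was the closest to it, with 7.83 on pLKO replicate 1, below the percentile of 7.92. Only 2 of them passed the threshold of 0.05 on the adjusted p, Nusap1 higher and Ccna2 lower, which is 3.85% of the genes against 5.21% of all genes tested. By direction, 1 of 52 was higher, against 2.99% of all genes, and 1 of 52 lower, against 2.22%. Without adjustment the same 2 genes had a limma p under 0.05, 3.85% against 19.1% of all genes and 26.8% of the 7885 genes that were as clearly above the negative controls. The median log2 difference of the 52 was 0.046, against -0.012 for all genes. Of the 52 differences, 40 were above 0 (76.9%) and 12 below. Above 0 were 46.8% of all genes and 44.3% of the 7885 genes. In RNA from a whole culture, fewer cells in a phase and less RNA per cell cannot be told apart.

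The bounds on these differences were narrow. For 51 of the 52 genes the 95% interval of the difference lay within 0.5 of 0 on the log2 scale, or 1.41-fold in either direction, and 83.4% of all genes had an interval that narrow. Nusap1 was the exception. For the 50 genes that did not pass, the differences ran from -0.12 for Cdc25c to 0.19 for Kif20a, and their intervals together spanned -0.34 to 0.42. The median residual SD of the 52 genes was 0.074 on the log2 scale, against 0.118 over all genes and 0.090 over the genes above the negative-control percentile. A p that misses the threshold does not show equal levels.

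**Figure D1:**
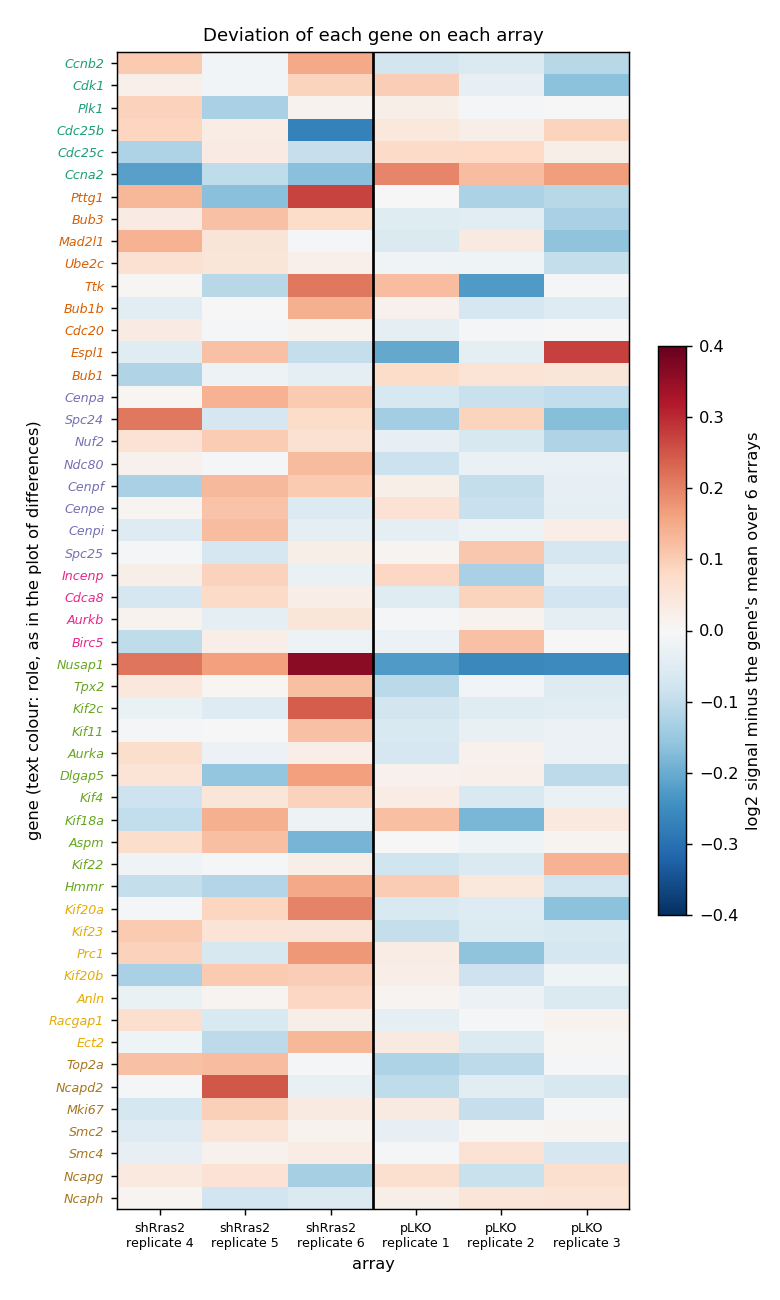
Each row is a gene and each column an array, shRras2 replicates 4 to 6 left of the line and pLKO replicates 1 to 3 right of it; colour gives the log2 signal minus the gene's mean over the 6 arrays. Nusap1 is above its mean on all 3 shRras2 arrays and Ccna2 below it, while most other rows hold pale colours of both signs within a group.

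Array by array, the median deviation of the 52 genes from their 6-array means was 0.010, 0.022 and 0.033 on shRras2 replicates 4, 5 and 6, against -0.006, -0.032 and -0.034 on pLKO replicates 1, 2 and 3. The 3 knockdown medians were above the 3 control medians. Centring each array on its median moves every gene alike. It placed the median difference of the 52 genes at 0.0054 and that of all genes at -0.052. After centring, 29 of the 52 differences were above 0 and 23 below. The count above 0 was 42 after a second quantile normalization and after cyclic loess, and 37 to 41 without 1 array. The count above 0 is thus relative to the scaling, and of these settings centring gave the lowest. The groups did not overlap for 16 of the 52 genes (30.8%), against 25.5% of all genes and 38.9% of the 7885 genes above the negative-control percentile in both groups. Of the 16, 13 were higher in shRras2 (all genes, 11.6%) and 3 were lower (all genes, 13.9%). Among the 7885 genes, 1280 were apart and higher and 1784 apart and lower. Besides Nusap1 and Ccna2 the 16 genes were Ccnb2, Ube2c, Bub3, Cenpa, Nuf2, Ndc80, Tpx2, Kif11, Kif20a, Kif23, Top2a and Ncapd2, higher, and Bub1 and Ncaph, lower.

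Among the genes of mitotic entry, Ccna2 fell and the other 5 measured genes did not pass. Ccna2 encodes cyclin A2, which binds CDK2 in S phase and CDK1 in G2. Its log2 signals were 11.08, 11.19 and 11.13 on shRras2 replicates 4, 5 and 6, against 11.49, 11.42 and 11.46 on pLKO replicates 1, 2 and 3. The groups were apart by more than the spread within either, with means of 11.13 ± 0.06 in shRras2 and 11.46 ± 0.04 in pLKO cells (SD, n = 3 each). The log2 difference was -0.32 ± 0.08 (SE; limma adjusted p = 0.0452), a 1.25-fold lower signal. The call sat at the edge of the threshold. It was lost after a second quantile normalization (adjusted p = 0.0503), after cyclic loess (0.0545), and when any of 5 arrays was left out (reaching 0.157), the exception being the fit without shRras2 replicate 5. In RefSeq Ccna2 overlaps Exosc9, looked at after these values were seen, which differed by -0.05 ± 0.08 (limma adjusted p = 0.802).

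The B-type cyclin Ccnb2 had a difference of the opposite sign to Ccna2, which did not pass. Ccnb2, a partner of CDK1, had signals of 11.45, 11.33 and 11.50 on the shRras2 arrays, against 11.27, 11.29 and 11.23 on the pLKO arrays. All 3 knockdown values were above all 3 control values, but the difference of 0.16 ± 0.08 did not pass (limma adjusted p = 0.307). The contrast between the cyclins was taken within each array, as the deviation of Ccna2 minus that of Ccnb2, a pair chosen after its values were seen. It was -0.32, -0.09 and -0.32 in shRras2, against 0.27, 0.18 and 0.28 in pLKO, a difference of -0.49 on the log2 scale. As both genes were already apart between the groups in opposite directions, this is a description with no test.

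The differences of the kinase partner and its regulators did not pass. Cdk1 had signals of 10.65, 10.61 and 10.71 in shRras2, against 10.72, 10.59 and 10.46 in pLKO, and the 2 groups overlapped. Plk1, the polo-like kinase that promotes CDK1 activation and later spindle assembly, had 12.27, 12.05 and 12.19 in shRras2, against 12.20, 12.17 and 12.18 in pLKO. For Plk1 the knockdown values lay on both sides of the controls, the difference was -0.01 ± 0.08, and its sign changed with the normalization. Cdc25b and Cdc25c, phosphatases that remove the inhibitory phosphates from CDK1, had differences of -0.10 ± 0.10 and -0.12 ± 0.08 (limma adjusted p = 0.663 and 0.467). The value of Cdc25b rested on shRras2 replicate 6, which was at 8.35 when the other 5 arrays were between 8.65 and 8.71.

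In the spindle checkpoint and anaphase group 0 of 9 genes passed (all genes, 5.21%), and 0 had an unadjusted limma p under 0.05 (all genes, 19.1%). With 9 genes, these counts do not set the group apart from other genes. Their differences ran from -0.12 for Bub1 to 0.16 for Pttg1, with a median of 0.070. Bub1, a checkpoint kinase at kinetochores, had 10.49, 10.59 and 10.57 in shRras2, against 10.69, 10.67 and 10.66 in pLKO. The groups of Bub1 did not overlap, and the difference of -0.12 ± 0.07 did not pass (limma adjusted p = 0.444). Cdc20, the activator of the anaphase-promoting complex that the checkpoint inhibits, was the steadiest of the group, with 10.72, 10.68 and 10.70 in shRras2, against 10.65, 10.68 and 10.68 in pLKO. Its 95% interval was -0.14 to 0.19. Pttg1, which encodes securin, the inhibitor of separase, had the widest scatter among shRras2 arrays of the group, 8.98, 8.68 and 9.12, against 8.84, 8.72 and 8.73 in pLKO. Espl1, which encodes separase, lay nearest the negative-control percentile, with 8.02 ± 0.11 in shRras2 and 8.04 ± 0.24 in pLKO cells (SD, n = 3 each). The checkpoint genes Bub1b, Bub3, Mad2l1 and Ttk had differences of 0.07, 0.15, 0.12 and 0.07, and Ube2c, the ubiquitin-conjugating enzyme of the anaphase-promoting complex, of 0.09.

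None of the 8 centromere and kinetochore genes passed (all genes, 5.21%), and 0 had an unadjusted limma p under 0.05 (all genes, 19.1%). The median difference was 0.081, and 7 of 8 were above 0, or 6 after centring on array medians. Above 0 were 76.9% of the 52 genes and 46.8% of all genes. With 8 genes, these counts do not set the role apart from the other members. Cenpa, the histone H3 variant that marks the centromere, had 10.78, 10.91 and 10.87 in shRras2, against 10.70, 10.68 and 10.67 in pLKO. The knockdown values were all higher, by a mean of 0.17 ± 0.08 (limma adjusted p = 0.271). Of the NDC80 complex, which binds microtubules at the outer kinetochore, Ndc80 and Nuf2 were apart between groups with differences of 0.09 and 0.14, and Spc24 and Spc25 overlapped with differences of 0.15 and -0.03. Ndc80 had 10.31, 10.29 and 10.42 in shRras2, against 10.21, 10.27 and 10.27 in pLKO. Cenpe, a kinetochore motor, Cenpf and Cenpi had differences of 0.05, 0.07 and 0.02.

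The chromosomal passenger complex moves from centromeres to the spindle midzone and holds Aurora B. Its 4 genes, the smallest role, had the narrowest range of differences, from -0.06 for Birc5 to 0.06 for Incenp. Of the 4, 0 passed (all genes, 5.21%) and 0 had an unadjusted limma p under 0.05 (all genes, 19.1%). The groups were apart for 0 of the 4 (all genes, 25.5%). With 4 genes, this range and these counts do not set the complex apart from other genes. Aurkb, the kinase, had 11.02, 10.97 and 11.06 in shRras2, against 11.00, 11.02 and 10.97 in pLKO. Birc5, which encodes survivin, had 10.28, 10.41 and 10.36 in shRras2, against 10.35, 10.49 and 10.38 in pLKO. The scaffold Incenp and the subunit gene Cdca8 (borealin) differed by 0.06 and 0.02.

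Among 11 genes of spindle assembly and motors, Nusap1 rose and 10 did not pass. Nusap1 encodes a microtubule-binding protein that bundles spindle fibers near chromosomes. Its log2 signals were 10.40, 10.36 and 10.55 on shRras2 replicates 4, 5 and 6, against 9.96, 9.93 and 9.93 on pLKO replicates 1, 2 and 3. The control arrays lay within a few hundredths of each other and every knockdown array was above them. The difference was 0.49 ± 0.08 (SE; limma adjusted p = 0.0111), 1.41-fold, with a 95% interval of 0.31 to 0.68. Nusap1 kept its call whichever of the 6 arrays was left out (highest adjusted p, 0.0498) and under the 8 other settings tried. Among the knockdown arrays, replicate 5 had the lowest Nusap1, the highest Ccna2, the highest Rras2 and the lowest median deviation of the muscle markers (0.340, against 1.118 and 0.975 on replicates 4 and 6). Not all genes followed this order. Cenpa, Bub3, Nuf2, Top2a and Ncapd2, also higher in shRras2 with groups apart, were highest on replicate 5. Ccnb2, Ndc80 and Tpx2, likewise higher and apart, were lowest on it. A relation to the remaining Rras2 signal was not tested. In RefSeq Nusap1 overlaps Oip5, a centromere gene looked at after these values were seen, and whether probes cover the shared stretch is not known here. Oip5 had 7.81, 7.97 and 7.97 in shRras2, against 8.05, 7.95 and 8.18 in pLKO, a difference of -0.14 ± 0.09 that did not pass (limma adjusted p = 0.46).

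The remaining spindle genes had differences between -0.04 for Hmmr and 0.11 for Tpx2. Tpx2, which targets and activates Aurora A, had 11.02, 10.98 and 11.10 in shRras2, against 10.87, 10.97 and 10.92 in pLKO. These groups were just apart, and the difference did not pass (limma adjusted p = 0.484). Aurka, the gene of that kinase, had 10.35, 10.25 and 10.30 in shRras2, against 10.21, 10.29 and 10.25 in pLKO, and overlapped. Kif11, the bipolar kinesin that pushes spindle poles apart, had 10.09, 10.09 and 10.21 in shRras2, against 10.03, 10.06 and 10.07 in pLKO. Its groups were apart, with a difference of 0.08 ± 0.08 that did not pass (limma adjusted p = 0.66). Hmmr and Dlgap5, both microtubule-associated, scattered among the knockdown arrays with SDs of 0.15 and 0.16, as did Kif2c (0.16) and Aspm (0.17). Hmmr, Dlgap5 and Kif2c were lowest on shRras2 replicate 5 and highest on replicate 6. Aspm ran the other way, highest on replicate 5 (9.32) and lowest on replicate 6 (9.01).

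**Figure D2:**
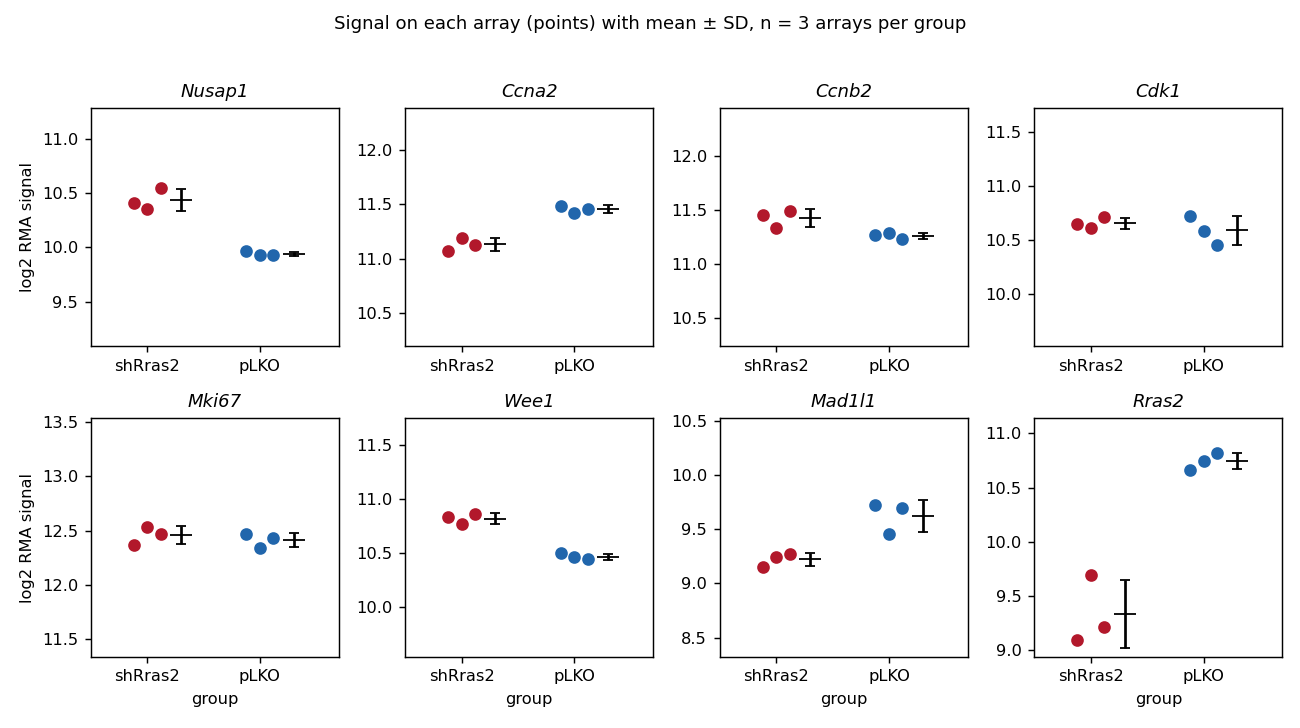
Points are log2 RMA signals of single arrays and the bars beside them the mean ± SD (n = 3 arrays per group), shRras2 left and pLKO right, with the same height of axis for every gene. Nusap1 and Wee1 are higher and Ccna2, Mad1l1 and Rras2 lower in shRras2 with no overlap, Ccnb2 is just apart, and Cdk1 and Mki67 overlap.

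All 7 genes of the midzone and cytokinesis had differences above 0, from 0.01 for Ect2 to 0.19 for Kif20a. Above 0 were 76.9% of the 52 genes and 46.8% of all genes. Of the 7, 0 passed (all genes, 5.21%) and 0 had an unadjusted limma p under 0.05 (all genes, 19.1%). With 7 genes, these counts do not set the role apart. Under centring on array medians, the shift shared by all genes put 2 of the 7 below 0. Kif20a, a kinesin of the central spindle, had 11.74, 11.83 and 11.95 in shRras2, against 11.69, 11.70 and 11.58 in pLKO. This was the largest difference among the 50 genes that did not pass (0.19 ± 0.08, limma adjusted p = 0.278). Kif23, which with Racgap1 forms the centralspindlin complex, was also apart, with 11.05, 11.00 and 11.00 in shRras2, against 10.85, 10.89 and 10.89 in pLKO. Its partner Racgap1 differed by 0.02 ± 0.08. Prc1, a bundler of midzone microtubules, had 10.63, 10.48 and 10.71 in shRras2, against 10.57, 10.38 and 10.47 in pLKO, and overlapped. Anln, the anillin of the contractile ring, and Kif20b both differed by 0.05.

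The genes of chromosome structure held the proliferation marker Mki67, topoisomerase II and the condensin subunits. Here 0 of 7 passed (all genes, 5.21%) and 0 had an unadjusted limma p under 0.05 (all genes, 19.1%), counts too small to set the role apart. Mki67, whose protein coats mitotic chromosomes, had 12.37, 12.53 and 12.47 in shRras2, against 12.47, 12.34 and 12.43 in pLKO. The groups overlapped, and the 95% interval of the difference was -0.14 to 0.23. Top2a, which untangles DNA before segregation, had 10.42, 10.43 and 10.30 in shRras2, against 10.18, 10.20 and 10.30 in pLKO. Its groups were apart by a narrow margin, with a difference of 0.16 ± 0.08 (limma adjusted p = 0.334). The core condensin genes Smc2 and Smc4 each differed by 0.01. The differences of the condensin I subunits, none of which passed, were 0.14 for Ncapd2, -0.03 for Ncapg and -0.08 for Ncaph.

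**Figure D3:**
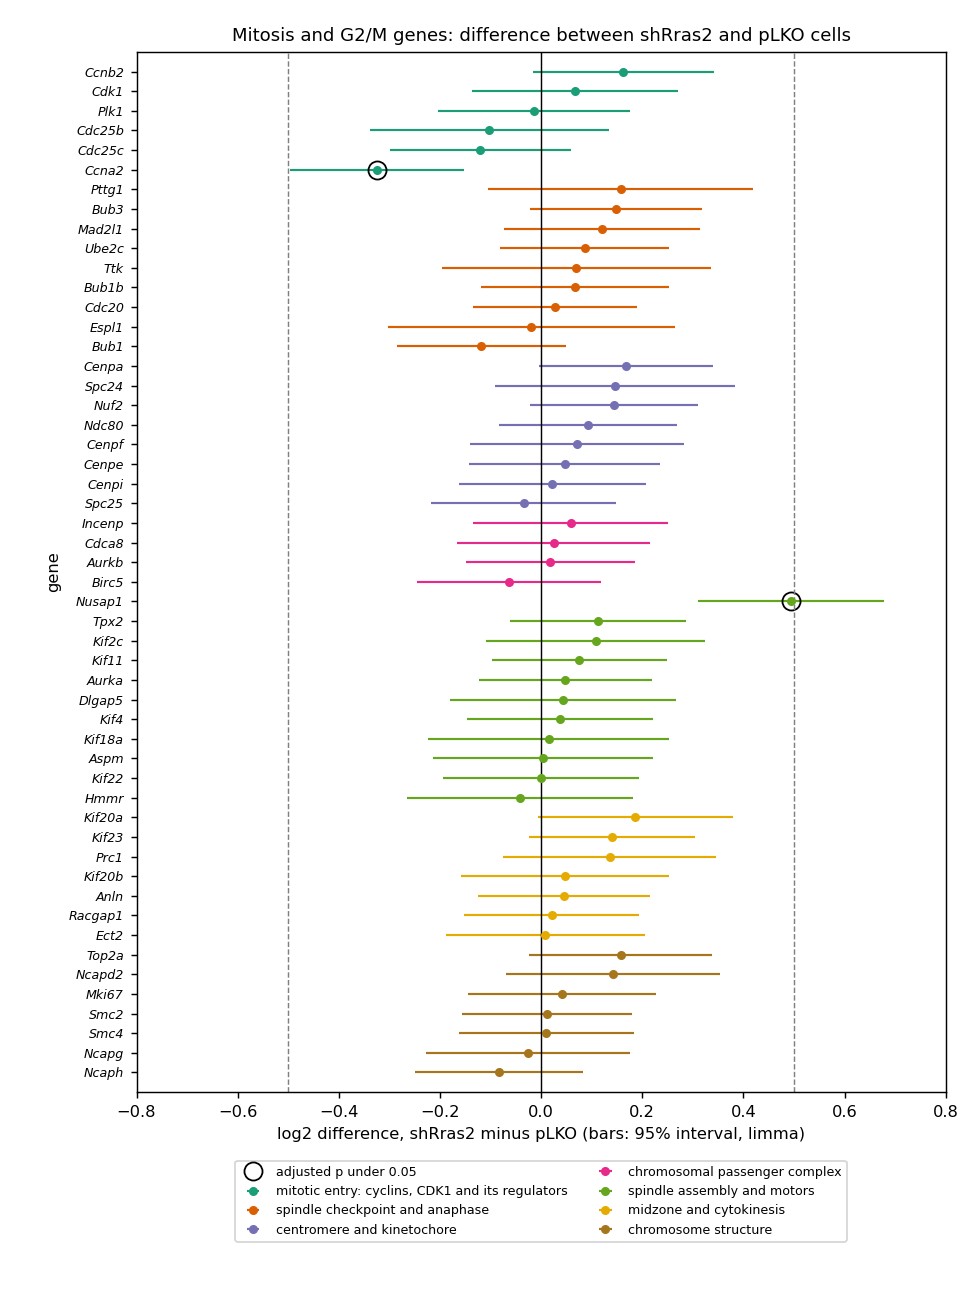
Points are log2 differences, shRras2 minus pLKO, of the 52 measured genes by role, with 95% intervals from limma and dashed lines at 0.5 on either side of 0. Circles mark Nusap1 and Ccna2, the 2 genes past the adjusted threshold, and the intervals of the other 50 genes all cross 0 inside the dashed lines.

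A wider list of 105 other mitosis genes, of which 101 were measured, held 2 genes past the threshold, Wee1 higher and Mad1l1 lower, 1.98% of the list against 5.21% of all genes, and the median difference was -0.024. Wee1 encodes the kinase that places the inhibitory phosphate on CDK1. It had 10.84, 10.77 and 10.86 in shRras2, against 10.50, 10.47 and 10.44 in pLKO, and no values overlapped. The difference was 0.35 ± 0.07 (limma adjusted p = 0.0306), and with 1 array left out it passed in 1 of 6 fits (highest adjusted p, 0.111). Mad1l1 encodes MAD1, which recruits MAD2 to unattached kinetochores, and had 9.15, 9.24 and 9.27 in shRras2, against 9.73, 9.45 and 9.69 in pLKO. Its difference was -0.40 ± 0.09 (limma adjusted p = 0.0466), and it too passed in 1 of 6 such fits (highest adjusted p, 0.16). Mad2l1, the gene of the partner MAD2, had 11.16, 11.07 and 11.01 in shRras2, against 10.96, 11.05 and 10.86 in pLKO, and overlapped.

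A list of 48 measured S phase genes is set beside the mitotic genes because cyclin A2 acts in both phases. There 46 differences were below 0 and 2 above, with a median of -0.16. The mitotic genes had 12 below and 40 above, with a median of 0.046. Above 0 were 46.8% of all genes and 44.3% of genes above the negative-control percentile. No test was made of one list against the other. On shRras2 replicates 4, 5 and 6 the median deviations of the S phase genes were -0.113, -0.043 and -0.053, against 0.061, 0.070 and 0.083 on the pLKO arrays. Only Mcm6, a subunit of the replicative helicase, passed (-0.79 ± 0.08, limma adjusted p = 0.00119), 2.08% of the list against 5.21% of all genes. Without adjustment, 16 of the 48 genes (33.3%) had a limma p under 0.05. The same share was 19.1% of all genes and 26.8% of genes above the negative-control percentile. The groups were apart for 22 of the 48 genes (45.8%), 21 of them lower, against 25.5% of all genes, 13.9% lower, and 38.9% of genes above the negative-control percentile. Over the 14 alternatives the S phase median ranged between -0.20 and -0.13 and the mitotic median between 0.005 and 0.076.

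**Figure D4:**
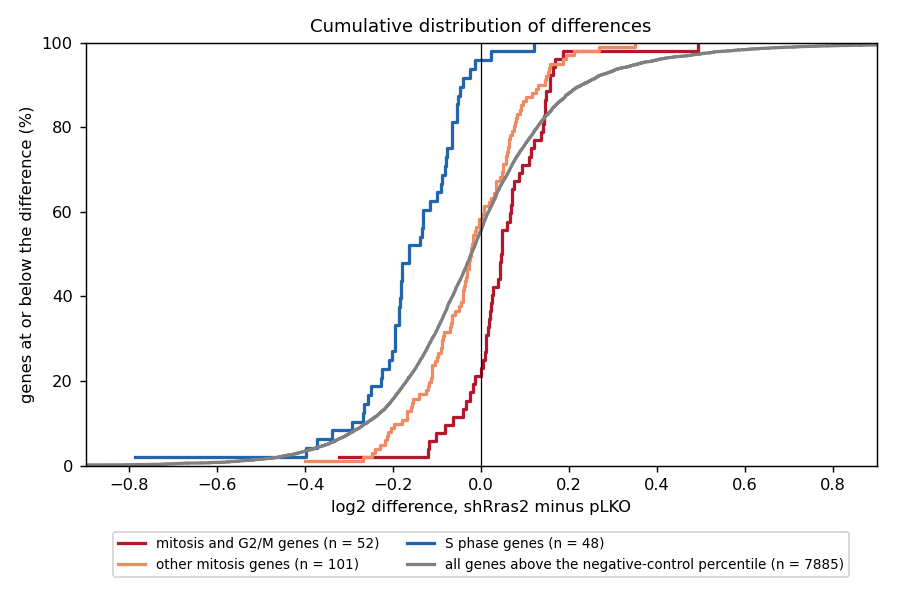
Cumulative share of genes (vertical axis, %) at or below a log2 difference, shRras2 minus pLKO (horizontal axis), for the 52 mitosis and G2/M genes, 101 other mitosis genes, 48 S phase genes and the 7885 genes above the negative-control percentile in both groups. The mitosis curve is steep around its median of 0.046, and the S phase curve lies to the left with a median of -0.16.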

How the data were processed

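Each array yields log2 signals, deposited by the authors after RMA; the submitters' processing notes name RMA and R 3.6.3, and the sources used here give neither a package version nor a filter. RMA corrects background, quantile normalizes arrays and summarizes probes, so a change shared by all transcripts is removed. The platform annotation gave 1 symbol for 19572 of 22206 transcript probe sets, several for 0 and none for 2634. The probe set with the highest mean was kept per gene (19505 genes). The 3 shRras2 and 3 pLKO arrays were compared in limma 3.58.1 under R 4.3.3 by lmFit and eBayes, two-sided and without covariates; p-values were adjusted by Benjamini-Hochberg across the 19505 genes, and calls used 0.05. The fit was tested on simulated data. A simulated log2 shift of 0.5 was detected in 23 of 67 cases, 1.0 in 57 of 67 and 2.0 in 66 of 66. Among 19305 genes simulated with no shift, 3 were called. Most simulated shifts of 0.5 were thus missed, so small counts past the threshold do not by themselves exclude differences of that size or less. The simulation used the spreads of all genes (median residual SD 0.118, against 0.074 for the 52 genes). Its recovery rate need not hold for the 52. The 50 of them that did not pass all had 95% intervals within 0.5 of 0. Smaller differences inside those intervals remain possible. Errors are limma SEs, or SDs over 3 arrays. The number of arrays limits the precision. The members and lists were chosen with earlier results of these data known. The rule for named genes took Rras2, every member past the threshold, a fixed list of main regulators, the largest rise and fall of each role and genes of the other lists past the threshold. The remaining members are given by value, or by range and count only. Alternatives covered normalization, the dim-gene filter, probe set choice, eBayes settings, array weights and leaving out each array. Promoter sequences and gene overlaps are from RefSeq on GRCm38.p6; the array's build is not stated there.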

Additional observations from a re-analysis of the deposited data

How the results depend on the processing

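The results were recomputed under 14 alternatives, of which 6 left out 1 array each. The count of mitosis and G2/M genes past the threshold was 2 or, where Ccna2 was lost, 1: it was 1 after a second quantile normalization and after cyclic loess and ranged from 1 to 2 without 1 array, and Nusap1 passed throughout. Their median difference was 0.0054 with each array centred on its median (all genes, -0.052), 0.076 after cyclic loess, and 0.032 to 0.069 without 1 array. The count over all genes was 1908 with eBayes trend and robust settings and 392 to 1136 without 1 array. Centring moved its split to 506 higher and 567 lower, against 584 and 433. The other mitosis genes gave 1 call when every transcript probe set was tested, where Mad1l1 was lost, 4 with trend and robust settings, and 0 to 1 without 1 array. The S phase genes gave 2 calls after centring, 3 without the 30% dimmest genes, 6 with trend and robust settings, 2 with array weights, and 1 to 2 without 1 array. Rras2 kept its fall in all 14, with -1.59 to -1.29 without 1 array. Of the values of 28 other named genes, 9 changed sign, all for genes that did not pass: Plk1 (-0.065 to 0.047 without 1 array) to 0.011, 0.017 and 0.047 (second quantile normalization, cyclic loess, without shRras2 replicate 5), Aurkb (up to 0.041) to -0.022 and -0.0019 (centring, without shRras2 replicate 6), Cdc20 to -0.013 (centring), Cdc25b (as low as -0.17) to 0.0078 (without shRras2 replicate 6), Spc25 (as low as -0.077) to 0.011 (without pLKO replicate 2) and Hmmr (as low as -0.13) to 0.0074 (without shRras2 replicate 5). The cause was not tested. No paired analysis was possible because the groups share no replicate numbers. Espl1 and Oip5 lay near the negative-control percentile, where signal over background limits what can be seen.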
